A study of Mus musculus with 12 samples.

Results

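The AP-1 family gene loci are the genes Fos, Fosb, Fosl1, Fosl2, Jun, Junb, Jund, Atf3 and Batf, each taken with 20000 bp of sequence on either side of the gene body (GENCODE M21 annotation, genome build GRCm38). The 9 genes were chosen by name, out of 21924 protein-coding genes. Their loci held 99 of the 273256 accessible intervals of the series, an interval being a stretch in which the peaks of any of the 4 groups overlap or touch. Open chromatin was profiled with Omni-ATAC-seq, an assay in which Tn5 transposase tags accessible DNA with sequencing adaptors, in 12 libraries of 50000 sorted mouse cells each. All cells were P2 mouse embryonic fibroblasts (MEFs) taken at E12.5 (strain label 129) that carry a Cas9 transgene, a Nanog-GFP reporter and a doxycycline-inducible MKOS cassette encoding MYC, KLF4, OCT4 and SOX2 with an mOrange marker. A lentivirus delivered either a guide without a target in the genome (control) or a guide to Zfp266, a KRAB zinc finger gene (KO). The KO cells are thus pools of edited cells and not clones. Cells were either kept in fibroblast medium (MEF control and MEF KO) or reprogrammed with doxycycline at 300 ng/ml and vitamin C at 10 µg/ml and sorted as mOrange+ (reprogramming control and reprogramming KO). By the methods of the study, reprogramming cultures also held wild-type MEFs before the sort. Their medium had LIF and lacked the FGF2 and heparin of fibroblast medium. Effects of medium and of factor induction thus cannot be told apart between these states. Harvest was at 96 hours after transduction in every group, which is 72 hours of factor induction in the reprogramming groups. Each group had 3 libraries, and the labels do not say whether these came from separate cultures, so that p-values measure the spread between these libraries. In such bulk samples, fewer accessible cells and less accessibility per cell cannot be told apart.

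AP-1 is a dimeric transcription factor of basic leucine zipper proteins. JUN proteins can pair with themselves or with FOS proteins, whereas FOS proteins need a JUN partner, and ATF and BATF proteins join the same network. The dimers bind the heptamer TGACTCA, also called the TPA response element, or the related octamer TGACGTCA. In fibroblasts AP-1 relays serum, growth factor and stress signals, the Fos and Jun genes being textbook immediate early genes, and AP-1 sites are abundant in fibroblast enhancers.

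The strength of an interval in a group was taken as the fold enrichment over local background of its strongest broad peak, as MACS2 reported it on a linear scale. In broad mode this fold is a mean over the whole peak, so that wide peaks tend to low values. The deposited files hold 1 merged peak list per group, of 161687 to 170135 peaks, and peak values therefore have no replicate error. An interval was called lower or higher where its fold differed by at least 1.5 times between 2 groups that both had a peak. Absence of a peak says only that the interval did not pass the peak caller's threshold (FDR under 0.1). The read depth behind the lists is not in the files used here, but the size factors, a relative measure of depth, ran from 0.990 to 1.46 in the 6 MEF libraries and from 0.630 to 1.10 in the 6 reprogramming libraries. These factors come from reads in the intervals, so they mix depth with the share of reads that fell there, and the 2 ranges overlap. Whether depth differed with the state of the cells, and its part in peaks seen in MEFs only or in reprogramming only, was not tested. Insertion counts do not show whether Zfp266 carries a mutation, so the KO label was not checked by these values. Where 4 values are given in a row, their order is control MEFs, KO MEFs, control reprogramming cells and KO reprogramming cells. All 8 fibroblast marker genes had a promoter peak in every group, with summed folds of 23.2, 22.4, 22.3 and 22.3. Of 7 pluripotency marker genes, 5, 6, 6 and 6 had a promoter peak and they moved in both directions. The summed folds reached 26.3 and 24.5 in reprogramming and at most 21.5 in MEFs, a difference carried by Zfp42 (no peak, 1.81, 8.75 and 8.95). The promoters of Pou5f1 (2.23, 2.09, 3.03 and 2.57) and Tdgf1 (3.38, 3.49, 4.51 and 4.21) had higher and that of Utf1 (5.45, 5.93, 4.65 and 3.92) lower folds in reprogramming, without a call between the controls. The Nanog promoter had a peak in reprogramming only (2.66 and 2.40), that of Dppa5a in MEFs only (4.57 and 4.19), and that of Esrrb was called lower in reprogramming (4.36, 3.96, 2.74 and 2.48). Promoter peaks were found at 4, 4, 5 and 5 of 5 epithelial, 3, 3, 2 and 2 of 4 endothelial, 3, 3, 2 and 2 of 3 muscle and 1 of 4 blood marker genes in each group. The part of other cell types in the results was not tested.

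The sequences on which the comparisons turn are given first, each as a continuous run on GRCm38. The promoters of Fos, Jun and Batf are shown because the first stayed accessible, the second carries the octamer TGACATCA, known from the Jun promoter and the third lost its peak in reprogramming. They are RefSeq sequences that end at the base before the annotated start (8 of the 9 genes matched the RefSeq promoter table), read on the strand of the gene, and TGACATCA is in capitals. The Fos promoter lies at chr12:85473640-85473889 (plus strand), the Jun promoter at chr4:95052223-95052472 (minus strand) and the Batf promoter at chr12:85686470-85686668 (plus strand).
Fos promoter: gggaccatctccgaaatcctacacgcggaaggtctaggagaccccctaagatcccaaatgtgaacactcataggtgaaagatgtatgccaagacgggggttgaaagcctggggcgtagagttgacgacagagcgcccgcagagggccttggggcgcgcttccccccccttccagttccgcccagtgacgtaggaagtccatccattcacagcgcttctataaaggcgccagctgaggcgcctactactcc
Jun promoter: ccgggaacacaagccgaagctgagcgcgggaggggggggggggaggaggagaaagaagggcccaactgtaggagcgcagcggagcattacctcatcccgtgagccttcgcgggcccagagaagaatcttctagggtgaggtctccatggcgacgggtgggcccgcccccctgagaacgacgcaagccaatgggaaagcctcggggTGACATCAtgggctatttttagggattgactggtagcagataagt
Batf promoter: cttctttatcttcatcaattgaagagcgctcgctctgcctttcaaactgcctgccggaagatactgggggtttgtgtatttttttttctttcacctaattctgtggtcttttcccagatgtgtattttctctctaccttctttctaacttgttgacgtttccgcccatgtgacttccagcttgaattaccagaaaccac

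The distal elements are shown as the 300 bases at the midpoint of the interval, on the plus strand, with TGACTCA or its reverse complement TGAGTCA and TGACATCA in capitals. The first set is a stretch downstream of Jun where accessibility moved between neighbours, at chr4:95032773-95033072 (element J1, weaker in reprogramming), chr4:95035463-95035762 (J2, peak in MEF only) and chr4:95036250-95036549 (J3, peak in reprogramming only). All lie in introns of the noncoding gene Gm12703.
Jun J1: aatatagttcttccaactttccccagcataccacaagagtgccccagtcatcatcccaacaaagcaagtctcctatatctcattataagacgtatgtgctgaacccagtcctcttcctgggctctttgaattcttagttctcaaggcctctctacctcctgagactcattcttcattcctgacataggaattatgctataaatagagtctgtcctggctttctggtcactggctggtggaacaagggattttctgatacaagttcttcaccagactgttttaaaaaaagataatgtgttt
Jun J2: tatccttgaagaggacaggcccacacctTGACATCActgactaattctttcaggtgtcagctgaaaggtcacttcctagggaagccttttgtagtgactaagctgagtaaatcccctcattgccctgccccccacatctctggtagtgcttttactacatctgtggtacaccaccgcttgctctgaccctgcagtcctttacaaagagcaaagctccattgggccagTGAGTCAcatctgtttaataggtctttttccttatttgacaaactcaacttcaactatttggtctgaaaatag
Jun J3: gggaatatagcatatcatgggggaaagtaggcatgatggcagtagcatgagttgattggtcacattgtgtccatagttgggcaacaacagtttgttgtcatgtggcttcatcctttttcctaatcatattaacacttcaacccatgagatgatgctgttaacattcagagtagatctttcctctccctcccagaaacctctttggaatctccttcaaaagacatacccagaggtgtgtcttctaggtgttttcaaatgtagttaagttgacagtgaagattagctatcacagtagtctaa

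The second set holds elements upstream of Fosl1 (F1, chr19:5444809-5445108) and of Fosl2 (F2, chr5:32117143-32117442), which had a peak in MEF only, an element past the end of Fosl2 that was more accessible in KO than in control reprogramming cells (F3, chr5:32164095-32164394), and elements inside Atf3 (A1, chr1:191172522-191172821) and upstream of it (A2, chr1:191222023-191222322), which were weaker in reprogramming. F1, F2, F3 and A2 are intergenic, A1 is intronic, and F1 and A1 hold none of these strings.
Fosl1 F1: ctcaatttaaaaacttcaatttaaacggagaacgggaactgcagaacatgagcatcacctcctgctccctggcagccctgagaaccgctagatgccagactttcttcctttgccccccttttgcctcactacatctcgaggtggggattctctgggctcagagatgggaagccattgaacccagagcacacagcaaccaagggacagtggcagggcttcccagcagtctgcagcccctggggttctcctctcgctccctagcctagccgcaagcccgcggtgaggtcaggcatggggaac
Fosl2 F2: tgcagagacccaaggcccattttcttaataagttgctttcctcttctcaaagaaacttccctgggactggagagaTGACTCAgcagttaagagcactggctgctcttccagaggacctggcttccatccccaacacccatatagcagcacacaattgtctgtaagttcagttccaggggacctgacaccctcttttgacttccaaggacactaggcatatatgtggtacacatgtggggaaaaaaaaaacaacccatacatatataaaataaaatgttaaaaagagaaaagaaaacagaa
Fosl2 F3: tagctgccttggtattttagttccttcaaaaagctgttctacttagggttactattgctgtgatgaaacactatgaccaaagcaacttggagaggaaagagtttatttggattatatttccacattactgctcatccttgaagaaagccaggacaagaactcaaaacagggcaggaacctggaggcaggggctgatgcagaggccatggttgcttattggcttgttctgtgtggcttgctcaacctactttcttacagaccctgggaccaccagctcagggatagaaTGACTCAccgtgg
Atf3 A1: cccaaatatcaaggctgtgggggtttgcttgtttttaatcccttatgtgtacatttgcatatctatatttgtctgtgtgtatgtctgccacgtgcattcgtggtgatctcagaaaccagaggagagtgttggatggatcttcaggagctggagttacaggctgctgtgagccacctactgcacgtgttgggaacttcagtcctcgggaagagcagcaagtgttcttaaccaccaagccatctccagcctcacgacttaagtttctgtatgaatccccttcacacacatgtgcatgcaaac
Atf3 A2: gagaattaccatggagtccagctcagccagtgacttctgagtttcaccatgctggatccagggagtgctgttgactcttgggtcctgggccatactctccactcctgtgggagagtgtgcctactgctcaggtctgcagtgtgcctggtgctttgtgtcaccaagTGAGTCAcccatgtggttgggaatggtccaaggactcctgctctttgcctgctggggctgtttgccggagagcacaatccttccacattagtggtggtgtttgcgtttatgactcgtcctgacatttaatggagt

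Most AP-1 chromatin was shared between fibroblasts and reprogramming cells. Of the 99 intervals, 53 (53.5%) had a peak in all 4 groups, against 24.7% of all intervals of the series. Promoter intervals were widely shared in general, 15473 of 17061 having a peak in both controls. Other gene loci were not compared, so this share is not shown to be particular to AP-1. A further 13 (13.1%) had a peak in both MEF groups only and 13 (13.1%) in both reprogramming groups only, against 27.5% and 27.4% of all intervals. Of the rest, 7 had a peak in 3 groups (7.07%, against 4.41% of all) and 13 in 1 group (13.1%, against 15.5% of all). The 53 shared intervals had a median top fold of 3.47, and the 13 intervals seen in 1 group had a median of 1.94, so the latter are weak peaks. Of the 99 intervals, 14 covered the promoter of another coding gene, such as Rtn2 near Fosb or Hook2 and Prdx2 near Junb. Position alone does not assign these to the AP-1 gene, 1 of them being the interval that covers Jund itself and also reaches a promoter of Iqcn.

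The question of the first comparison was how the loci of control cells changed over 72 hours of reprogramming. Of 57 intervals with a peak in MEF control and in reprogramming control, 15 were lower in reprogramming (26.3%, 95% Wilson interval 16.6 to 39.0%, for counting error only) and 0 were higher. Over all intervals of the series 24.9% were lower and 9.66% were higher, so the share of lower intervals was near the background. The median log2 ratio was −0.25 at the AP-1 loci and −0.22 over all intervals. After division by this general median, 8 of 57 intervals were lower and 1 was higher, against 14.3% and 15.6% of all intervals, and the split between directions therefore depends on the centring. A peak was present in reprogramming control only at 16 of 88 intervals, against 36.2% of all, and in MEF control only at 15 of 88, against 34.6% of all.

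**Figure D1:**
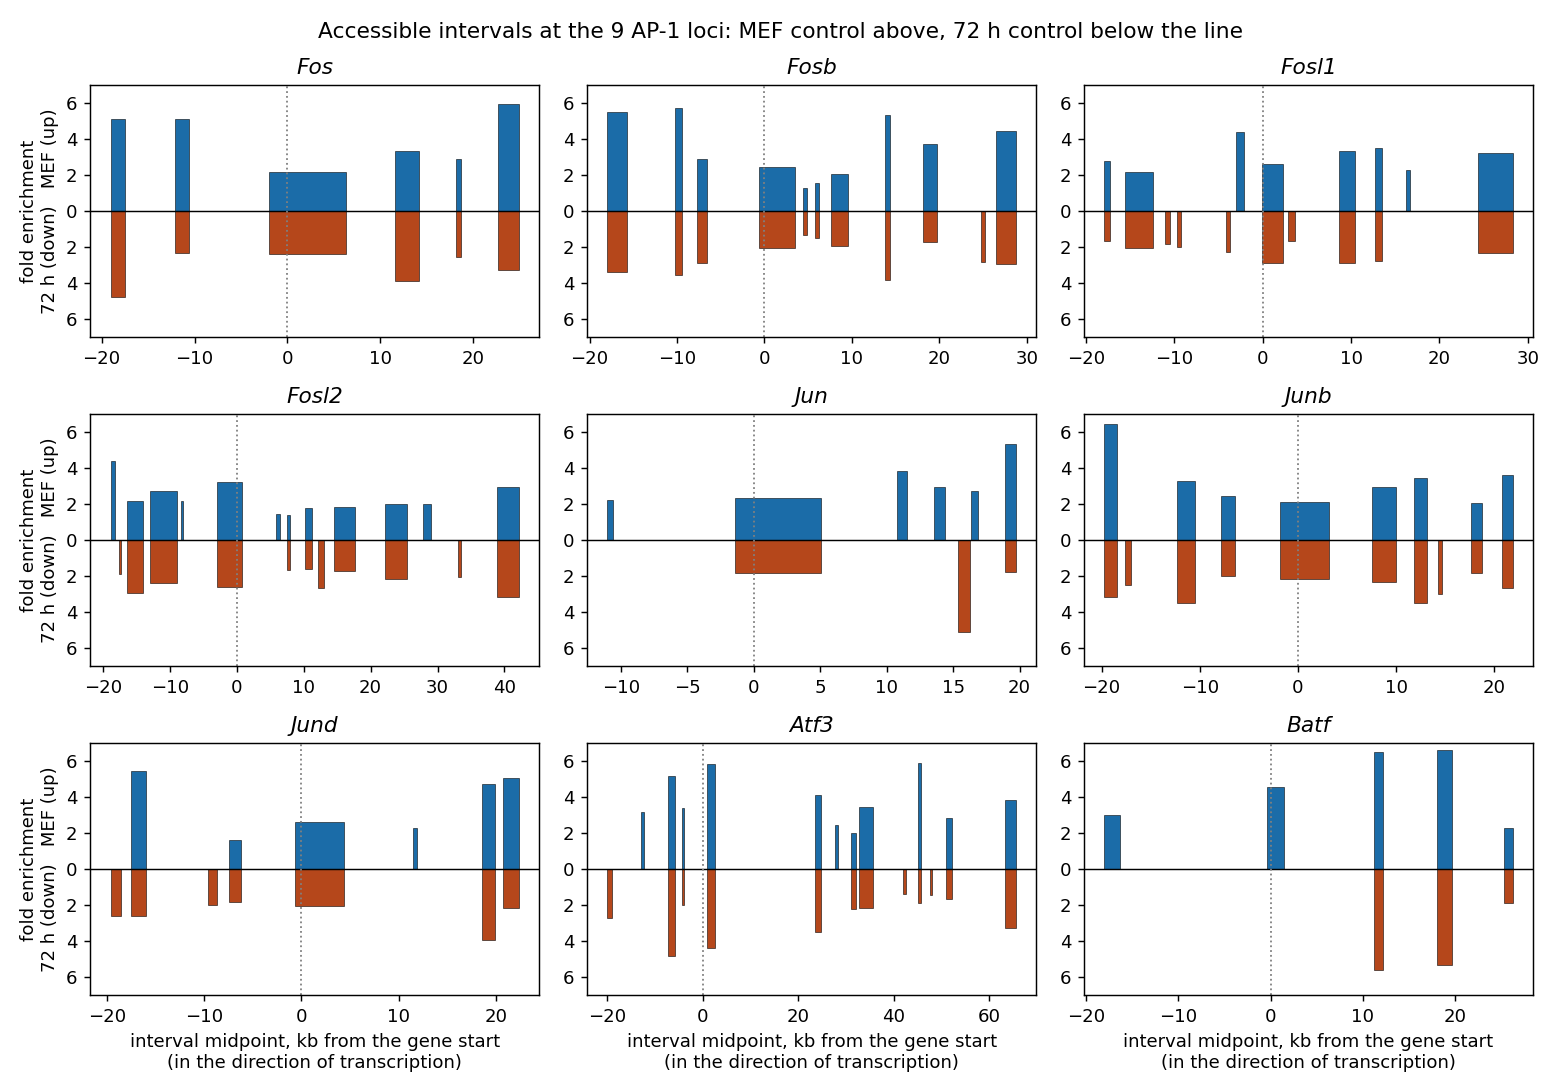
Accessible intervals at the 9 loci. The horizontal axis gives the distance of the interval from the gene start in kb, in the direction of transcription, and the vertical axis the fold enrichment (linear), with MEF control upward in blue and reprogramming control (72 h) downward in red and with narrow intervals widened for visibility. Fos has bars on both sides at all 6 positions, whereas the other loci have bars on 1 side only at some positions, 7 of them at Fosl2, 6 at Fosl1 and 5 each at Jun and Atf3.

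In the KO cells the same comparison gave 18 lower and 0 higher intervals among 56 with both peaks, against 23.8% and 10.0% of all intervals. After division by the median ratio 9 were lower and 0 higher, against 14.0% and 15.7% of all. A peak was seen in reprogramming KO only at 25 of 97 intervals (35.4% of all) and in MEF KO only at 16 of 97 (35.0% of all). The ratio ran from 0.364, at element A1 of Atf3, to 1.28, at element F3 of Fosl2.

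Between the controls, the strongest interval at the start of each AP-1 gene was not called in either direction where both had a peak. Between the KO groups that of Atf3 was called lower, from 5.74 to 3.40. The promoter of a gene was taken as the strongest interval within 1000 bp of an annotated start. Of 8 AP-1 promoters with a peak in both controls, 0 were called lower and 0 higher, whereas 18.7% of all promoters were lower and 1.98% higher. Among all 9, 0 had a peak in reprogramming control only (5.04% of all promoters) and 1, that of Batf, in MEF control only (4.27% of all promoters). The count of 0 lower holds for this choice of interval. For Atf3 the strongest interval reaches the outer start region with its edge only, and the interval that holds its inner start was called lower. The promoter intervals of Fos, Jun, Jund and Junb were wide, at 8273, 6501, 5055 and 4990 bp against a median of 1756 bp over 17182 promoters, and they covered Fos, Jun and Jund from end to end. Several of these intervals join 2 peaks of a group, and the fold is that of the stronger one, as a mean over its own width.

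**Figure D2:**
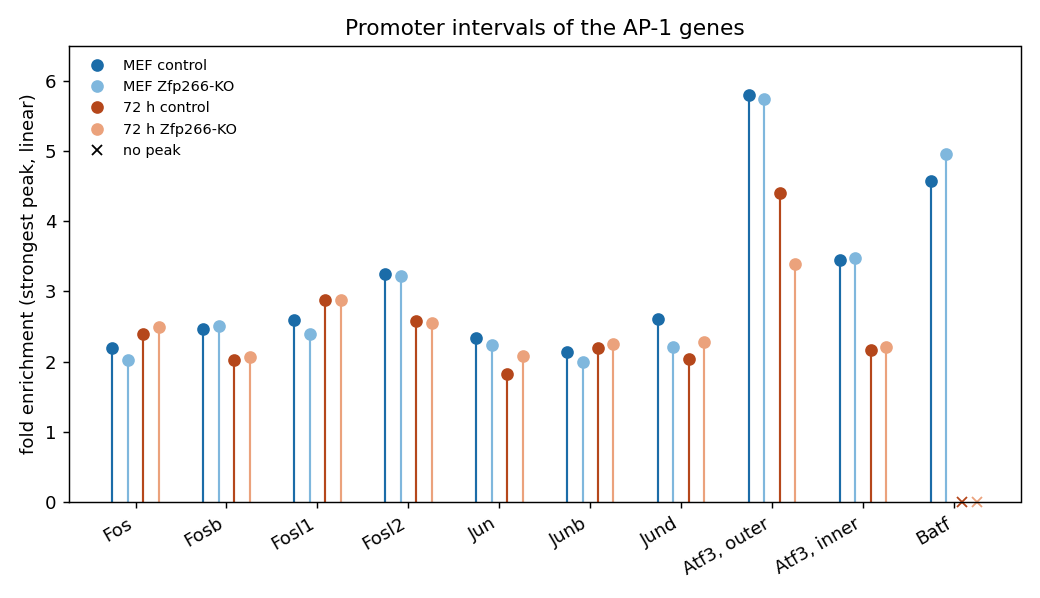
Fold enrichment (linear) of the promoter intervals in the 4 groups. Each point is the strongest peak of a merged list, without replicate error, and a cross marks a group without a peak; both reprogramming groups lack a peak at Batf, while Fos, Fosl1 and Junb lie at or above their MEF values.

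Fos encodes the founding member of the family, induced within minutes of serum addition. All 6 intervals of its locus had a peak in all 4 groups. The promoter interval (chr12:85471876-85480148), which spans the gene, had folds of 2.19 and 2.02 in control and KO MEFs and of 2.39 and 2.50 in control and KO reprogramming cells. It was thus slightly stronger in the reprogramming groups, below the threshold for a call. The intergenic interval 11338 bp upstream of the start (chr12:85461770-85463335) showed the largest fall, from 5.12 and 4.63 in the MEF groups to 2.34 and 2.38 in the reprogramming groups. The interval 23778 bp downstream (chr12:85496565-85498771) fell from 5.94 and 5.96 to 3.26 and 2.87. By contrast, the interval at 12850 bp was the one with the largest rise, at 3.31, 3.19, 3.86 and 3.63, and the upstream interval at 18274 bp kept folds of 5.09, 5.12, 4.75 and 4.62. At Fos, 2 of 5 flanking elements were thus called lower, against 24.9% of all intervals, and the other 3 were not called.

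Fosb encodes FOSB, a FOS protein that carries a C-terminal transactivation domain. Of its 11 intervals, 10 had a peak in both controls and 4 of these were called lower in reprogramming control, against 24.9% of all intervals. The promoter interval (chr7:19306508-19310620) had folds of 2.46 and 2.50 in control and KO MEFs and of 2.02 and 2.06 in control and KO reprogramming cells. Outside it, the strongest element in MEFs was the intergenic interval 9815 bp upstream (chr7:19319447-19320285), which fell from 5.74 and 6.01 to 3.57 and 3.58. In reprogramming the interval 14052 bp downstream, in an exon of Rtn2, was stronger, with 5.33, 5.03, 3.84 and 3.69. The largest fall, from 3.74 and 3.85 to 1.70 and 1.83, was at an interval that lies on a promoter of Rtn2. The interval 7103 bp upstream had 2.89, 2.59, 2.90 and 2.64, the highest ratio of the locus among intervals with a fold of at least 2.

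Fosl1, which encodes FRA-1, a FOS protein without a C-terminal transactivation domain, had intervals of both kinds, seen in MEFs only or in reprogramming only. Its promoter (chr19:5447434-5449906) had folds of 2.59 and 2.39 in control and KO MEFs and of 2.87 and 2.88 in control and KO reprogramming cells, the largest rise of its locus and still below a call. The element just upstream of it, F1 (chr19:5444494-5445424, 2588 bp before the start), had a peak with folds of 4.39 and 3.97 in the MEF groups and none in either reprogramming group. Its −log10 q in MEF control was 114, the highest of all intervals that both reprogramming groups lacked. The neighbouring interval 3956 bp upstream was seen in reprogramming only, at 2.26 and 2.07. The interval called lower between the controls lies 17572 bp upstream (chr19:5429656-5430294) and had 2.79, 2.82, 1.69 and 1.65. Between the KO groups an interval at a Fibp promoter, 13148 bp from the start, was also called lower, from 3.67 to 2.39. The widest interval of the locus is at the Efemp2 promoter and had 3.23, 3.07, 2.32 and 2.37. In total Fosl1 had 4 intervals in both reprogramming groups only and 2 in both MEF groups only, of 14 in all, against 27.4% and 27.5% of all intervals. All 4 of the former were weak, with folds of 1.56 to 2.26.

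Fosl2 encodes FRA-2, and its locus had 16 intervals, none of the 8 with both control peaks being called, against 24.9% lower and 9.66% higher over all intervals. The promoter (chr5:32132866-32136635) had folds of 3.25 and 3.21 in control and KO MEFs and of 2.58 and 2.55 in control and KO reprogramming cells. Its distal elements differed among themselves. Element F2 (chr5:32116952-32117634), 18508 bp upstream, was present in MEF only, at 4.36 and 3.85. An intronic interval 12591 bp into the gene (chr5:32147877-32148908) was present in reprogramming only, at 2.66 and 2.49 and with −log10 q of 26.7 and 22.4. The interval 15246 bp upstream (chr5:32119361-32121749) had the largest rise of all 57 compared intervals, 1.34 times, with folds of 2.19, 2.05, 2.93 and 2.14. Between the KO groups the ratio at this interval was 1.04. The widest interval, 10917 bp upstream, had 2.70, 3.26, 2.41 and 2.05. It was called lower between the KO groups (1.59 times), as the only 1 of 8 there, against 23.8% of all intervals.

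Jun encodes the c-JUN subunit, a strong activator able to pair with itself. Its promoter interval (chr4:95047133-95053633), which covers the gene, had folds of 2.34 and 2.23 in control and KO MEFs and of 1.82 and 2.07 in control and KO reprogramming cells. The covered length was 4331, 4389, 6345 and 4549 bases in the same order. The reprogramming control, with the lowest fold, had 1 peak there and each of the other groups 2. The stretch downstream, within Gm12703, held elements of both directions. J1 (chr4:95032507-95033339, 19299 bp from the start) fell from 5.31 and 5.02 in the MEF groups to 1.77 and 1.90 in the reprogramming groups, a log2 ratio of −1.59 between the controls. J2 (chr4:95035324-95035903) had a peak in MEF only, at 2.73 and 2.78, as had the intervals at 13954 bp (2.95 and 2.67) and 11135 bp (3.81 and 4.01). J3 (chr4:95035940-95036860) starts 36 bases after the end of J2 and had a peak in reprogramming only, at 5.10 and 5.39. It was the strongest of the 13 intervals seen in both reprogramming groups only. With a further MEF interval in the antisense gene Junos, at 2.24 and 2.18, Jun had 4 of 7 intervals in both MEF groups only. These were 4 of the 13 such intervals of all 9 loci, the share over all intervals of the series being 27.5%, and 7 intervals are too few to read this count as particular to Jun. J2 holds TGAGTCA and TGACATCA in the window printed above, whereas J1 and J3 hold neither.

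Junb encodes a JUN protein that is a weaker activator and often opposes c-JUN. Its locus is gene dense, and 5 of its 10 intervals lie on promoters of other coding genes. The promoter interval (chr8:84975573-84980562) had folds of 2.13 and 1.99 in control and KO MEFs and of 2.19 and 2.24 in control and KO reprogramming cells. The interval called between the controls was at a Hook2 promoter 19081 bp upstream (chr8:84997176-84998423), with 6.45 and 7.24 in the MEF groups and 3.16 and 3.27 in the reprogramming groups. The largest rise was at another Hook2 promoter, 11424 bp upstream (chr8:84989208-84991077), with 3.26, 3.35, 3.51 and 3.26. The intergenic interval 7087 bp upstream, had 2.44, 2.22, 1.98 and 1.66, and its 300-base window holds TGAGTCA 3 times, the most of any member window. Reprogramming groups alone had a peak in an intron of Rnaseh2a, 14474 bp downstream, at 3.02 and 3.19, and in an intron of Hook2, at 2.52 and 2.12.

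Jund encodes a JUN protein that is present in resting cells. The promoter interval (chr8:70698317-70703371), which also reaches a promoter of Iqcn, had folds of 2.61 and 2.21 in control and KO MEFs and of 2.04 and 2.28 in control and KO reprogramming cells. The 2 controls therefore bracketed the 2 KO groups. The intergenic interval 16766 bp upstream (chr8:70681408-70682959) fell from 5.43 and 5.67 to 2.60 and 2.53, and the interval 21551 bp downstream, in an exon of Gm3336, from 5.07 and 4.66 to 2.14 and 2.41. The neighbouring promoter interval of Gm3336, at 19201 bp, had 4.70, 4.16, 3.93 and 3.64 and was not called. A peak 19050 bp upstream was seen in reprogramming only, at 2.62 and 2.37. The bases covered by peaks at Jund were 1.60 times as many in reprogramming control as in MEF control, the highest of the 9 loci, whose median was 0.986 against 1.16 over all genes.

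Atf3 encodes a stress-induced factor that often represses its targets. It is the longest of the loci, with 18 intervals, and 4 of the 9 with both control peaks were lower in reprogramming, against 24.9% of all intervals. Folds were lower at its outer and its inner start. The inner start, which is the RefSeq start, lies in chr1:191182394-191185298 with folds of 3.45 and 3.47 in control and KO MEFs and of 2.16 and 2.21 in control and KO reprogramming cells, 1.60 times lower in the reprogramming control. The interval next to the outer start (chr1:191215442-191217164, which reaches the start region with its edge only) had 5.81, 5.74, 4.40 and 3.40. Element A1 (chr1:191172391-191172954), in an intron 45367 bp from the outer start, showed the largest fall of all 57 intervals, from 5.91 and 5.06 in the MEF groups to 1.87 and 1.84 in the reprogramming groups, a log2 ratio of −1.66. A2 (chr1:191221945-191222402), 4134 bp upstream, fell from 3.40 and 3.11 to 2.02 and 1.89 and holds TGAGTCA at bases 166 to 172 of its window. The highest ratio of the locus was at the intronic interval at 31571 bp, with 1.98, 1.91, 2.21 and 2.11. Next to A2, the interval 6600 bp upstream had 5.16, 5.20, 4.81 and 4.70.

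Batf encodes a small protein without a transactivation domain, known from T and B lymphocytes, where it acts with JUN and IRF partners. It was the only member whose promoter peak was absent in reprogramming. The promoter interval (chr12:85686292-85688070) had folds of 4.57 in MEF control and 4.95 in MEF KO and no peak in either reprogramming group. The interval 17151 bp upstream (chr12:85668659-85670378) behaved alike, at 3.00 and 2.93 in the MEF groups and without a peak in the others. The 2 intronic elements kept their peaks in every group. The element at 11728 bp (chr12:85697921-85698874) had 6.52, 6.21, 5.60 and 5.29, and that at 18825 bp (chr12:85704721-85706268) had 6.60, 6.45, 5.34 and 4.71. Covered bases at Batf in reprogramming control were 0.630 times those of MEF control, the lowest of the 9 loci. Between the KO groups the ratio at Batf was 0.812, and that at Jun was lowest, at 0.772.

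**Figure D3:**
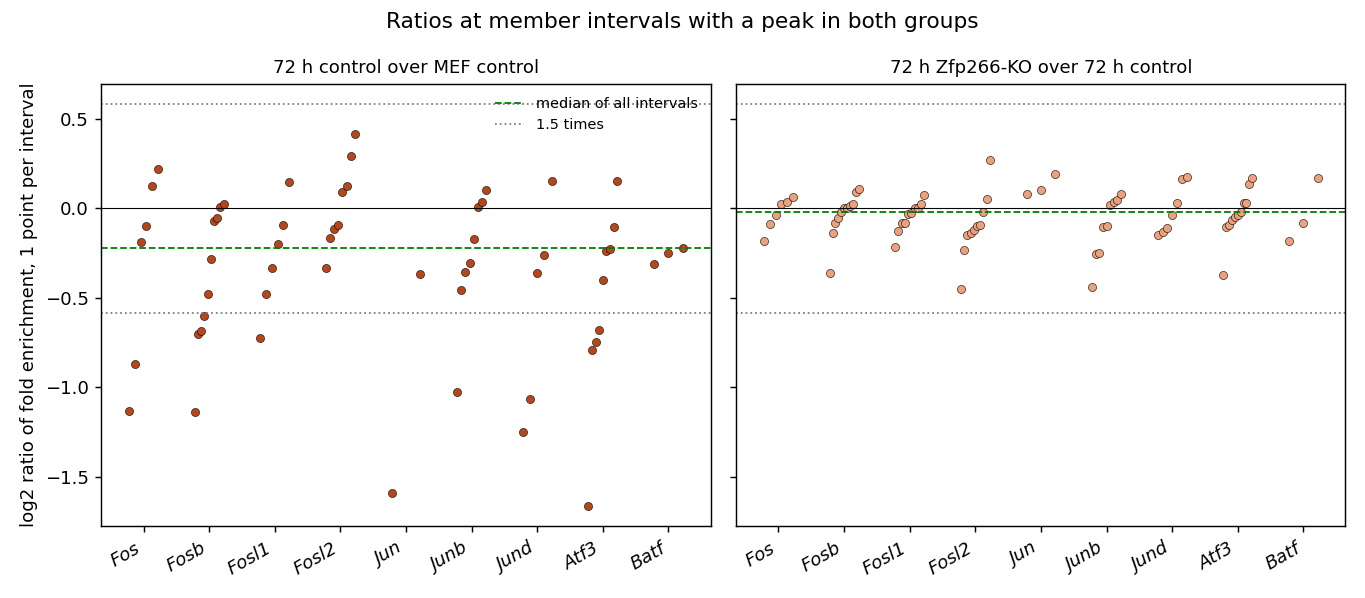
Log2 ratio of fold enrichment at member intervals with a peak in both groups, 1 point per interval, for reprogramming control over MEF control (left) and reprogramming KO over reprogramming control (right). Dotted lines mark a change of 1.5 times and the dashed line the median of all intervals; the left panel reaches −1.66 at Atf3, while every point on the right lies between the dotted lines.

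The second question was whether loss of Zfp266 altered these loci. In MEFs 0 of 69 intervals were lower and 0 higher in KO, against 0.102% and 0.0840% of all intervals. The ratios ran from 0.751, at the interval 64414 bp from the Atf3 start, to 1.21, at the Fosl2 interval 10917 bp upstream. A peak was found in MEF KO only at 3 of 75 intervals (5.77% of all) and in MEF control only at 3 of 75 (7.57% of all). In the table of intervals that the authors listed as changed in MEFs (0.176% of all intervals), 0 lay in any of the 9 loci. The nearest listed interval was between 123212 bp (Jund) and 8368884 bp (Jun) from the gene.

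In reprogramming 0 of 70 intervals were lower and 0 higher in KO, against 0.142% and 0.202% of all intervals, with ratios from 0.731 to 1.21. Both ends of that range were at Fosl2. A peak was present in reprogramming KO only at 11 of 84 intervals, against 7.50% of all, and in reprogramming control only at 3 of 84, against 11.0% of all. The 11 were 4 at Atf3, 3 at Batf, 2 at Fosl1 and 2 at Fosl2. Their median fold was 1.92, and 2 of them reached a −log10 q of 5, with a highest value of 11.2. The Fosl1 interval 19240 bp upstream was 1 of these 2, with a fold of 1.97 and a −log10 q of 7.39. The strongest of the 11 by fold was F3 at Fosl2, at 2.84, which is described below. Among the others, the Batf intervals 19504 and 2464 bp upstream had folds of 2.19 and 2.06 and the Atf3 interval 16354 bp into the gene had 2.13. The Batf promoter had no peak in either reprogramming group.

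The authors' table for reprogramming listed 1608 intervals (0.588% of all), of which 1522 (0.557%) were more open in KO. Of these 1 lay in a member locus, the Fosl2 interval that holds element F3 (chr5:32163624-32164867), 5782 bp past the 3′ end of the gene in intergenic sequence. Its normalised read counts, reads divided by the size factor of the library, were 36.9, 37.2 and 33.9 in the control libraries and 94.2, 91.0 and 90.5 in the KO libraries. Every KO library was thus above every control library. The means were 36.0 ± 1.79 and 91.9 ± 2.02 (SD, n = 3 libraries each), from 26 to 41 raw reads in control and 57 to 103 in KO. The log2 ratio in the edgeR quasi-likelihood fit was 1.35 ± 0.18 (SE), with an adjusted p of 1.54e-10 (Benjamini-Hochberg over 273256 intervals). The list was selected on these same libraries, and this p is not independent evidence. Without scaling the log2 ratio was 1.22, about as large, but the adjusted p was 0.144. With TMM scaling over the listed intervals it was 0.38 (adjusted p = 1), but of these 1608 intervals 1522 were more open in KO, and centring on them lowers such ratios by construction. The merged peaks at F3 had folds of 1.98 in MEF control and 2.22 in MEF KO, no peak in the reprogramming controls and 2.84 in their KO counterparts. The mean of the 6 MEF libraries, worked out from the mean over all 12 libraries that the authors give, was 125 normalised reads. The KO cells thus lay between the reprogramming control and the MEF level on this scale. The Fosl2 interval next in line, 40543 bp from the start (chr5:32174745-32177943), had folds of 2.96, 3.44, 3.16 and 3.81.

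**Figure D4:**
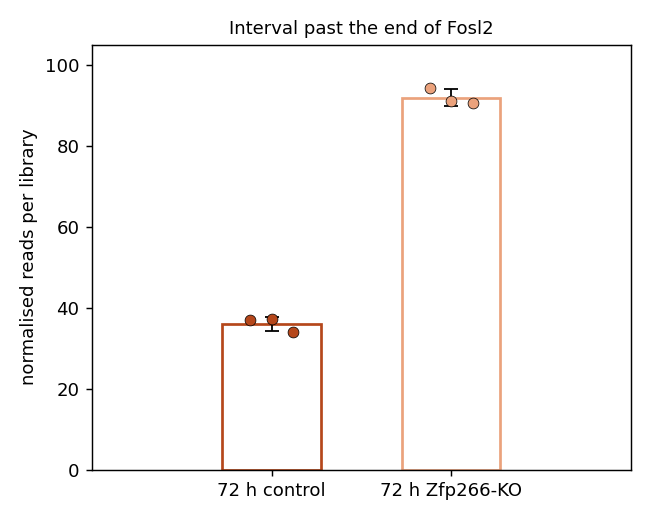
Normalised reads at the listed interval past the end of Fosl2 in the 6 reprogramming libraries. Bars are means, error bars SD (n = 3), and points libraries; the control libraries lie between 33.9 and 37.2 and the KO libraries between 90.5 and 94.2.

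Just outside the 20000 bp limit, a listed interval 21190 bp from Jund, on the promoter of Lsm4, rose from 207 ± 5.35 normalised reads in the control libraries to 360 ± 26.2 in the KO libraries (SD, n = 3), with a log2 ratio of 0.79 and an edgeR adjusted p of 2.72e-14. It comes from the same selected list, and without scaling its log2 ratio was 0.66 (adjusted p = 1). TMM scaling over the list, which centres on changed intervals, gave −0.19. For genes without a listed interval in the locus, the nearest is given with its mean normalised reads from control to KO libraries (± SD, n = 3). It was in an intron of Flvcr2 52161 bp from Batf (11.5 ± 2.11 to 37.8 ± 5.91), at the Klc3 promoter 89314 bp from Fosb (203 ± 12.2 to 337 ± 6.34) and in an intron of Tatdn3 121185 bp from Atf3 (36.6 ± 10.1 to 116 ± 25.8). It was at the Mlh3 promoter 201664 bp from Fos (399 ± 33.9 to 549 ± 8.70), in an intron of Pacs1 217221 bp from Fosl1 (183 ± 21.9 to 263 ± 18.1) and in intergenic sequence 784047 bp from Junb (149 ± 3.59 to 246 ± 29.0). That nearest to Jun was 184426 bp away and was the only 1 of those nearest to the 9 genes that was more closed in KO, at 153 ± 13.4 and 89.2 ± 9.53. Its log2 ratio was −0.77, −0.90 without scaling and −1.75 with TMM scaling over the list. Without scaling the adjusted p was 1 at this interval and at those nearest to Fos, Fosb, Fosl1 and Junb and 0.081 at that nearest to Batf, while each log2 ratio kept its sign. TMM scaling over the list turned the sign at those nearest to Fos (−0.51), Fosb (−0.25), Fosl1 (−0.46) and Junb (−0.24), again with centring on changed intervals.

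The Jun gene is known to be regulated by AP-1 itself, and the strings in the elements of all 9 genes were counted for that reason. In the 300 bases at the midpoint, 18 of 99 AP-1 locus intervals held TGACTCA or TGAGTCA (18.2%), against 15.5% of all intervals. Of the 15 member intervals with a peak in MEF control only, 6 held it (40.0%, 95% Wilson interval 19.8 to 64.3%), against 23.4% of all intervals of that kind. Searched over the whole interval, the same class gave 6 of 15 (40.0%) against 38.4% of all, so this contrast depends on the window. Of the 16 with a peak in reprogramming control only, 1 held it (6.25%, 1.11 to 28.3%), against 9.75% of all. Of the 15 lower intervals 2 held it (13.3%, 16.3% of all), of the 42 shared intervals without a call 6 held it (14.3%, 11.7% of all), and of the 11 without a peak in either control 3 held it (27.3%, 14.7% of all). The counts are small, and the interval for the MEF-only share includes the background. The 6 were F2 and F3 of Fosl2, J2 and the 11135 bp interval of Jun, and the Atf3 intervals 28078 bp into the gene and 12604 bp upstream. By gene, 6 of 18 windows at Atf3 held the string and 0 windows at Fos, Fosb and Jund. Over whole intervals it was found in 9 of 18 at Atf3, 1 of 6 at Fos, 4 of 11 at Fosb and 4 of 8 at Jund, so the order of the genes depends on the window.

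**Figure D5:**
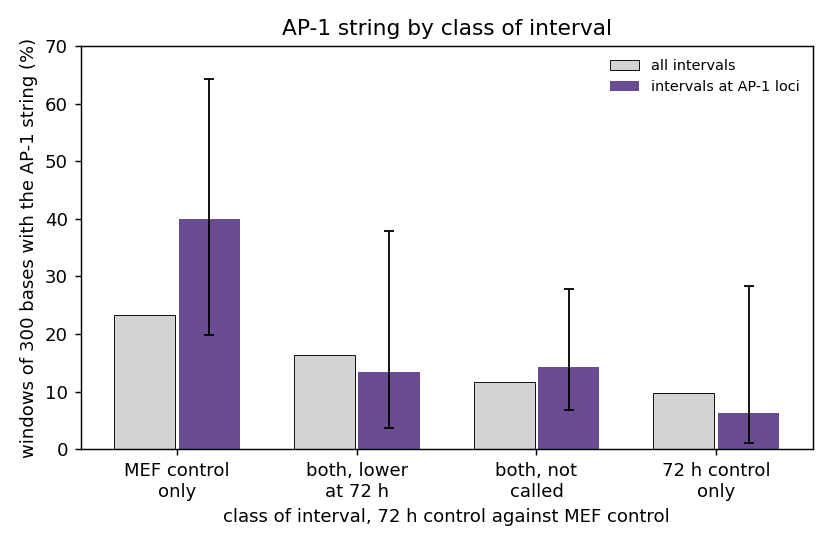
Share of 300-base windows with TGACTCA or TGAGTCA, by class of interval in reprogramming control (72 h) against MEF control. Grey bars are all intervals of the series and purple bars those at the 9 loci, with 95% Wilson intervals; among AP-1 loci the share is 40.0% in the MEF-only class and 6.25% in the reprogramming-only class.

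In the 250 bases before the RefSeq start, TGACTCA or TGAGTCA was found in 0 of the 8 matched AP-1 promoters (4.46% of 32851 promoters) and TGACGTCA in 0 (1.55%). The Jund window (chr8:70697489-70697738) lies outside any accessible interval, upstream of the promoter interval described above. Those of Fosl2 and Atf3 overlap exons of these genes. The Jun octamer TGACATCA or its reverse complement was found in 1, that of Jun, where it begins 45 bases before the start, and in 2.93% of all promoters. The CArG box bound by serum response factor was found in 0 of the 8 (1.47%). Promoter bases further upstream were not searched here. Of the strings bound by the factors of the cassette, ATTTGCAT (OCT4) was found in 1 of the 16 windows with a peak in reprogramming control only, GGGTGTGG (KLF4) in 1 and ACAAAGG (SOX2) in 0, on either strand, against 2.52%, 7.03% and 11.0% of all such windows.

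The promoters of the wider pathway are set against all promoters, of which 18.7% were lower and 1.98% higher, and no list was tested against them. Of 14 other basic leucine zipper genes, 2 were lower in reprogramming control (Batf3, 3.63 to 2.30, a BATF relative of dendritic cells, and Mafk, 3.66 to 2.36, a small MAF protein) and 0 were higher. Of 15 kinases and serum response factors that act upstream of AP-1, 2 were lower, Mapk3, which encodes the kinase ERK1 (4.31 to 2.03), and Map2k1, which encodes its activator MEK1 (6.27 to 3.61), and 0 were higher. Of 15 AP-1 target genes, the matrix metalloproteinase genes Mmp3, Mmp10 and Mmp13 had promoter peaks in the MEF groups only, with MEF control folds of 4.01, 4.36 and 3.53, whereas 4.27% of all promoters had a peak in MEF control only. These 3 genes are neighbours in 1 cluster (chr9:7271635-7502741) and are not independent of each other. Mmp9, the metalloproteinase gene of the list on another chromosome, had a promoter peak in all groups (2.99, 2.73, 2.20 and 2.15). Ets1, a transcription factor gene, was the only target called higher, from 4.51 in MEF control to 7.10 in reprogramming control. Over the 12 targets with both peaks the median log2 ratio was −0.09, against −0.25 over all promoters.

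Among 15339 other genes with a promoter peak in all 4 groups, those whose log2 folds lay nearest to the AP-1 promoters by Euclidean distance were Capn12, Tnrc18 and Dnd1 for Fos (distances 0.074 to 0.090), Gapdh, Mex3a and Hspb7 for Fosb (0.055 to 0.061), Eml2, Mc1r and Arid2 for Fosl1 (0.073 to 0.081) and Ngfr, Vegfa and Cacng4 for Fosl2 (0.047 to 0.052). For the JUN genes they were Tmem151b, Plekho1 and Myh7b for Jun (0.096 to 0.13), Cx3cr1, Hoxa7 and Prrx1 for Junb (0.074 to 0.088) and Dhrs3, Pygm and Gm10563 for Jund (0.12 to 0.15). Itpr1, Zfp346 and D8Ertd738e were nearest to Atf3 (0.068 to 0.094). Batf has no such neighbours, having no promoter peak in reprogramming.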

How the data were processed

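Omni-ATAC libraries were aligned by the authors to GRCm38 with BWA, cleared of duplicates, of mitochondrial and blacklisted alignments and of improper pairs, and broad peaks were called with MACS2. Each deposited peak list belongs to 1 group and gives a fold enrichment (a ratio) and a −log10 q per peak. The deposited gapped lists give the count of strong blocks per peak. The deposited tables of changed intervals hold raw read counts per library, a normalised signal (reads over the DESeq2 size factor of the library), the mean of that signal over all 12 libraries, and the authors' own fold changes and p-values, which were not used. Only listed intervals are in those tables, so a test over every interval was not run.

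Peaks of the 4 lists were merged to intervals (pandas 2.3.3, Python 3.11.15), with all 661623 peaks inside the chromosome lengths of the reference. Genes were from GENCODE M21, and positions are counted from 1. Listed intervals were tested with edgeR 4.0.16 in R 4.3.3 (quasi-likelihood, two-sided) using size factors recovered from the raw and normalised counts, and with DESeq2 1.42.0 as an alternative. The scripts were tested on simulated data. Groups follow the sample titles. For each gene the text names the promoter, the intervals with the largest fall and rise between the controls among those with a fold of at least 2, the widest interval and every listed interval of the reprogramming table (otherwise the nearest). The nearest intervals of the MEF table are given as a range of distances. Every other interval described, such as F1, F2, J2, J3 and A2, was chosen with its values known. The genes, lists and rules were chosen with earlier results of these data known. Pathway and marker lists were scored by their promoter intervals.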

Additional observations from a re-analysis of the deposited data

How the results depend on the processing

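Between the controls, a threshold of 2 times left 7 of 57 intervals lower and division by the median ratio left 8 lower and 1 higher. Between the KO groups these gave 6 and 9 lower intervals of 56. The share over all intervals was worked out for the division by the median ratio but not for the other thresholds and windows of calls below. In gene bodies alone, 2 of 19 intervals were lower and 7 of 26 had a peak in 1 group between the controls. Between the KO groups these were 3 of 18 and 10 of 28. A peak in KO or control only was seen at 2 of 22 (MEF) and 5 of 27 (reprogramming) intervals. With 50000 bp on either side, 28 of 112 intervals were lower between the controls (25.0%, against 26.3% as reported) and 6 were higher. A peak in 1 group was seen at 76 of 188. Between the KO groups 32 of 112 were lower and 4 higher, and 82 of 194 had a peak in 1 group. A peak in KO or control only was seen at 14 of 156 (MEF) and 26 of 167 (reprogramming), against 6 of 75 and 14 of 84 as reported. These last 2 counts were 2 of 62 and 5 of 54 with a −log10 q of at least 5, and 11 of 75 and 25 of 84 with a reciprocal overlap of 50%. Whole intervals held TGACTCA or TGAGTCA in 39 of 99 cases (39.4%, against 31.1% of all). The cause was not tested, except that wider or narrower windows hold more or fewer intervals by construction.

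The log2 ratio at element F3 of Fosl2 fell to 0.38 (adjusted p = 1) with TMM scaling over the listed intervals, 1522 of 1608 of which were more open in KO, so that centring on them lowers it by construction, and was 1.22 (adjusted p = 0.144) without scaling. DESeq2 gave 1.35. Leaving out each library in turn gave 1.31 to 1.37. With the replicate number as a block (replicate block) it was 1.34. The count of calls stayed at 1608 in reprogramming, but the list was selected on these same libraries, so this count says little about blocking. The correlation of same-numbered libraries ran from 0.0368 to 0.101 in reprogramming (6 of 6 libraries highest with their own number) and from 0.0428 to 0.214 in MEFs (5 of 6). Whether equal numbers share a batch is not in the labels and was not tested. The main fit did not pair them, and the fit with blocks is given beside it. Of 90 alternative values, 60 kept their direction and their side of the threshold or moved by less than the set limits, 28 moved further and 2 became weaker. Many of the 60 were counts of 0 that stayed 0, mostly between KO and control, where few intervals of the series were called. Those say little about stability. No member interval stood in the MEF table, so no member was tested in MEFs and the KO effect was not compared between MEFs and reprogramming. The MEF fits cover intervals outside the 9 loci. Peak lists without replicates, and 26 to 103 raw reads at F3, limit the precision.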
